A study of Mus musculus with 18 samples.

Results

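Tight junction genes were followed in the sorted epithelium of the mouse mammary gland: 5 claudins (Cldn1, Cldn3, Cldn4, Cldn7 and Cldn8), occludin (Ocln), tricellulin (Marveld2) and the zonula occludens scaffolds Tjp1 and Tjp3. The 9 genes were taken by symbol through the gene identifiers of the count table, 9 of 27179 genes, and all 9 were among the 16466 genes that passed the filter on low counts. Basal cells, luminal progenitors (LP) and mature luminal cells (ML) were sorted from 14-week-old female mice, with 3 mice per genotype and 1 library per mouse and population, which gave 18 libraries in 6 groups of 3. The knockout mice (KO) were MMTV-cre(T/+), with Brca2(delta/delta) and Trp53(delta/+), and the other mice were wildtype (WT). The MMTV promoter drives the Cre recombinase in mammary epithelium. The strain label, with floxed Brca2 and Trp53 and MMTVcre, reads the same for both genotypes, so it does not say whether the WT mice carried the transgene or the floxed alleles. The sample names say knockdown where the genotype label says Brca2KO.

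Tight junctions seal the space between neighbouring epithelial cells near their apical side. Claudins form the strands and set which ions pass, occludin and tricellulin sit in the same strands (tricellulin where 3 cells meet), and the zonula occludens proteins tie them to actin. In the mammary duct the junctions lie between luminal cells that face the lumen, and basal cells are contractile cells beneath them.

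Library totals ran from 5.97 to 39.2 M counts. Every LP WT library (9.29 to 16.2 M) was shallower than every LP KO library (22.4 to 32.7 M). The summed level of 9 basal markers was 14480 to 22235 CPM (read counts scaled to library size) in basal libraries, and that of 7 LP markers was 3562 to 6752 CPM in LP libraries. The 7 mature luminal markers stood apart by genotype in ML, at 1543 to 4273 CPM in KO and 6827 to 9169 in WT, and basal markers in ML were 696 to 861 CPM in KO and 17.9 to 21.1 in WT. Trp53 was lower in KO in all 3 populations (basal log2 fold change -1.72, LP -3.60, ML -1.58; edgeR adjusted p = 0.0059, 2.2e-05 and 0.0029). Brca2, counted over the whole gene and KO first, was 7.57 against 13.0 CPM in the basal sort, 18.5 against 25.9 in the LP sort and 11.2 against 9.46 in the ML sort (edgeR adjusted p = 0.74, 0.55 and 0.82). Counts over the whole gene include exons outside a deletion, so the Brca2 value does not check the label.

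Levels are given in CPM on TMM-scaled library sizes, as mean ± SD over n = 3 mice. Levels of different genes are compared only per length, as reads per kilobase of gene and per M counts (RPKM). Log2 fold changes with their standard errors (SE) and Benjamini-Hochberg adjusted p-values come from edgeR's quasi-likelihood test over all 16466 genes, with a threshold of 0.05.

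The wildtype populations set the frame. In WT, 8 of the 9 genes were higher in LP than in basal cells, where 16.9% of all genes tested were higher, and 7 were higher in ML than in basal cells (24.8% of all genes). The median log2 difference of the 9 genes was 5.46 for LP and 5.56 for ML, against a median near 0 for all genes (-0.07 for ML). Tjp1 was the exception in both comparisons, and Cldn1 in the second.

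Cldn4, a claudin of luminal epithelia, was the most abundant of the 9 per length in LP and ML of both genotypes. Its level was 911 ± 41.6 RPKM in LP WT, 1405 ± 337 in ML WT, 1258 ± 346 in LP KO and 971 ± 126 in ML KO. In basal WT cells it stood at 20.7 ± 12.9 RPKM. The next levels per length in the LP and ML groups were those of Cldn3 (168 to 517 RPKM as group means) and Cldn7 (127 to 202 RPKM), claudins that usually accompany Cldn4 in simple epithelia. In LP WT the ranges of Cldn3 and Cldn7 overlapped, at 137 to 331 and 146 to 269 RPKM, so their order there does not exceed the spread. Cldn8, a barrier-forming claudin, was the lowest of the 9 per length in 3 of the 4 luminal groups. Cldn1, next below Cldn7 in LP WT by its mean, ranged from 24.4 to 183 RPKM and overlapped Cldn3, Cldn7 and every lower gene except Cldn8. Tjp3 at 28.1 to 103 RPKM, Ocln at 43.5 to 72.3 and Tjp1 at 55.2 to 58.0 also overlapped one another, and Marveld2 at 24.9 to 39.1 overlapped Tjp3.

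Tjp1, the ubiquitous scaffold ZO-1, had the highest level of the 9 per length in basal cells, with 45.9 ± 5.86 RPKM in WT and 40.2 ± 3.22 in KO. In basal KO that order does not exceed the spread, since Cldn4, at 31.6 to 45.3 RPKM, was above Tjp1 in mice 2 and 3. In WT it stood at 327 ± 41.7 CPM in basal cells, at 402 ± 9.91 in LP and at 281 ± 42.5 in ML, and no pair of WT populations passed the test (edgeR adjusted p = 0.40, 0.50 and 0.14). Tjp3, the epithelial scaffold ZO-3, was 205 ± 114 CPM in LP WT and 1.61 ± 1.28 CPM in basal WT (log2 difference 7.08, SE 0.62, edgeR adjusted p = 5.2e-08). The pair of scaffolds therefore had unlike distributions over the WT populations. For Tjp1 no difference passed. Its WT libraries lay at 393 to 412 CPM in LP, 279 to 355 in basal cells and 238 to 322 in ML. Tjp3 was luminal.

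Between the WT luminal populations, 1 gene was higher and 3 were lower in ML than in LP, where 15.7% and 18.3% of all genes were. Cldn1, an early-described claudin that is essential for the skin barrier, was 595, 130.0 and 79.1 CPM in the LP of WT mice 1, 2 and 3, and 5.38, 3.50 and 1.20 CPM in their ML (log2 difference -6.43, SE 0.78, edgeR adjusted p = 6.7e-06). WT mouse 1 had the highest Cldn1 of the WT mice in all 3 populations. Cldn8 went the other way, with 11.2, 38.5 and 34.0 CPM in LP and 55.9, 108 and 118 CPM in ML (log2 difference 1.75, SE 0.42, edgeR adjusted p = 0.0034). Ocln (log2 difference -0.84, SE 0.27, edgeR adjusted p = 0.022) and Tjp3 (-1.53, SE 0.47, 0.018) were lower in ML. Without WT replicate 2, Ocln and Tjp3 did not pass (edgeR adjusted p = 0.13 and 0.12), Ocln also not without WT replicate 1 (0.083) and Tjp3 also not without WT replicate 3 (0.10). With the mouse as a block, which compares populations within a mouse, Marveld2 passed as well (edgeR adjusted p = 0.049), and Cldn1 passed as lower in ML than in basal WT cells (log2 difference -1.35, edgeR adjusted p = 0.0032, against 0.066 without the block).

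**Figure D1:**
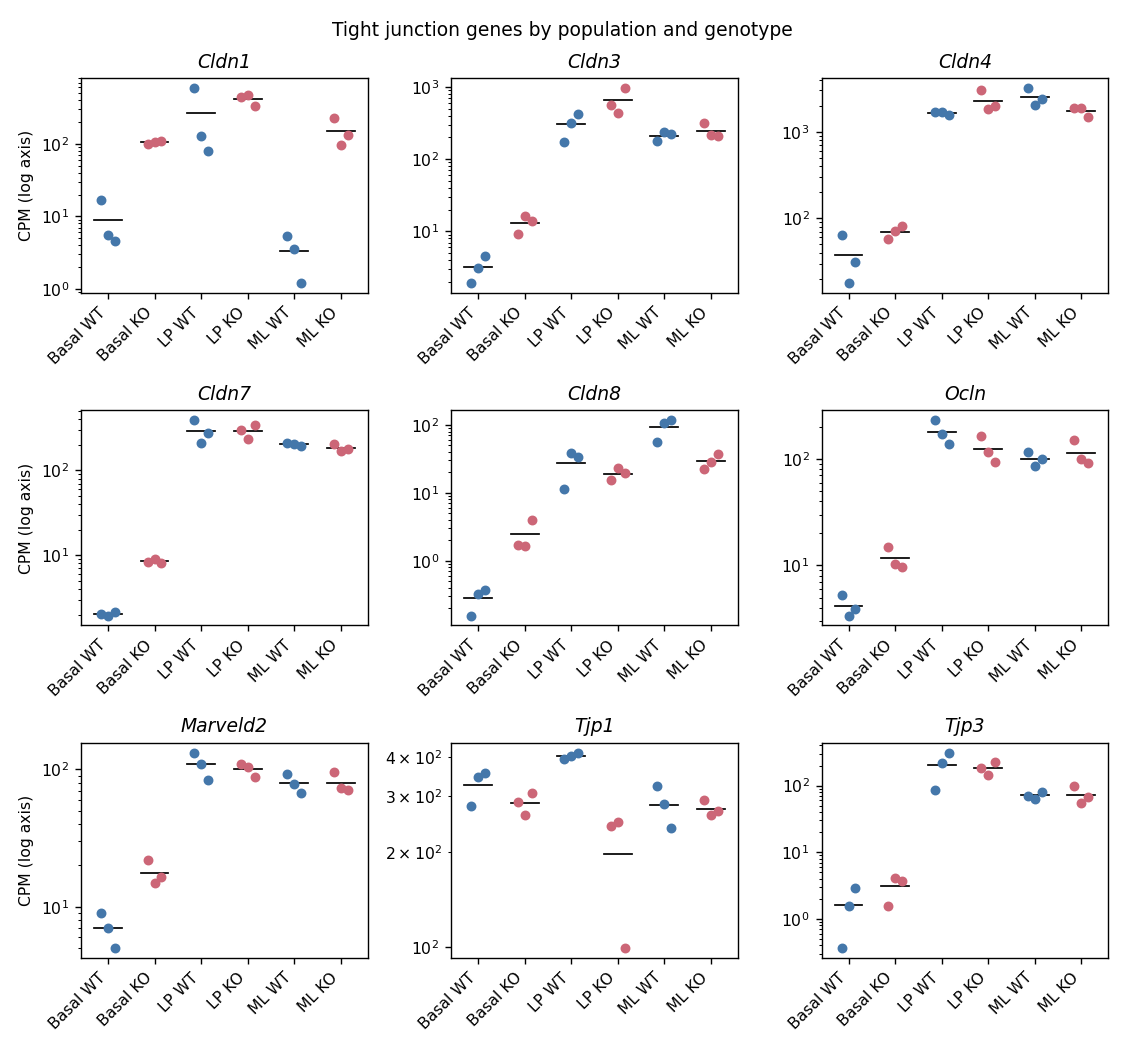
Level of each of the 9 genes in CPM on a log axis, by population and genotype; each point is 1 library (1 mouse, in the order of mice 1 to 3 from left to right), and the line is the group mean. In basal cells Cldn1 lies at 101 to 110.4 CPM in KO and 4.61 to 16.8 in WT, in ML at 96.4 to 229 in KO and 1.20 to 5.38 in WT, and Tjp1 has 1 low LP KO library at 99.2 CPM.

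The proximal promoters of 3 of the genes are shown for the results that follow: Cldn1, which had a pattern of its own, Cldn4, the most abundant claudin, and Cldn7, whose call in basal cells held in every setting tried. Each sequence is the 250 bases before a RefSeq transcript start on GRCm38.p6, given on the strand of the gene: Cldn1 at chr16:26371840-26372089 on the minus strand, Cldn4 at chr5:134946935-134947184 on the minus strand and Cldn7 at chr11:69964529-69964778 on the plus strand. Capitals mark matches, on either strand, to CACCTG (the E-box of Snail and Zeb factors), AACNGGTT (grainyhead-like factors) or TGANTCA (AP-1).
Cldn1: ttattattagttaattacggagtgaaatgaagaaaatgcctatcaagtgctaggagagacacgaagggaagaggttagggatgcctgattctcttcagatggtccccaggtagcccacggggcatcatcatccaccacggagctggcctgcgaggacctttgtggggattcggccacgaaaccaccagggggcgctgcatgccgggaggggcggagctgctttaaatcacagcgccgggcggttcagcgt
Cldn4: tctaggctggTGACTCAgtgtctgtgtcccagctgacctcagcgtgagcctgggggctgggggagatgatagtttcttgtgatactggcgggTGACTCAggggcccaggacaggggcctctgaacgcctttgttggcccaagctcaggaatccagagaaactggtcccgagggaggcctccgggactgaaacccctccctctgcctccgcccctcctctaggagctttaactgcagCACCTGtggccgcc
Cldn7: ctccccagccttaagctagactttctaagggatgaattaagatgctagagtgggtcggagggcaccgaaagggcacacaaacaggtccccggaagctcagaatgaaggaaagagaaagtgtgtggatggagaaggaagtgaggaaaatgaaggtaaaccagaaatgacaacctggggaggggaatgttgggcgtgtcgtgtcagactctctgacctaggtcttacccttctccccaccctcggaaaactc

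The Cldn1 and the Cldn7 windows held none of the 3 motifs, and the Cldn4 window held 2 TGANTCA matches and 1 CACCTG match. Promoter windows were found for 8 of the 9 genes, 12 windows in all since some genes have 2. CACCTG was in a window of Cldn4, Cldn7 (its second start), Ocln (its second start) and Tjp3 (both starts), and in 17.2% of all 32851 windows of the same length. TGANTCA was in 6.75% and AACNGGTT in 1.79% of all windows. None of the 3 motifs was found in the windows of Cldn3, Marveld2 and Tjp1. These matches describe the sequence only.

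In basal cells, KO against WT, 6 of the 9 genes were higher: Cldn1, Cldn3, Cldn7, Cldn8, Ocln and Marveld2. Of all genes tested, 2.54% passed in either direction and 2.47% were higher. The 6 genes were also those whose KO and WT libraries did not overlap, as was true of 17.6% of all genes. The median log2 fold change of the 9 genes was 1.49, against -0.02 for all genes tested. In bulk samples, fewer cells of a type and less RNA per cell cannot be told apart.

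Among the claudins, Cldn1 was 101, 105 and 110.4 CPM in KO mice 1 to 3 and 16.8, 5.49 and 4.61 CPM in WT mice 1 to 3 (105 ± 4.94 against 8.98 ± 6.82). Its log2 fold change was 3.54 (SE 0.67, edgeR adjusted p = 0.0045). The 3 KO mice were nearly alike, and the highest WT library was far below the lowest KO library. Cldn7 was 8.32, 9.04 and 8.05 CPM in KO and 2.03, 1.94 and 2.17 CPM in WT (log2 fold change 2.06, SE 0.24, edgeR adjusted p = 4.4e-05). Its replicates were close together in both genotypes, and its call held in all 14 alternative settings tried. Cldn3 was 9.13, 16.2 and 14.1 CPM in KO and 1.92, 3.09 and 4.52 CPM in WT (log2 fold change 2.08, SE 0.39, edgeR adjusted p = 0.0041). Cldn8 was 1.73, 1.65 and 3.99 CPM in KO and 0.156, 0.323 and 0.377 CPM in WT (log2 fold change 3.08, SE 0.58, edgeR adjusted p = 0.0041). The Cldn8 values rested on 32, 61 and 54 reads in KO and on 3, 9 and 4 reads in WT, and its call was lost in limma voom (adjusted p = 0.14) and in limma voom with the mouse as a random block (0.12). Cldn4, the remaining claudin, had 57.3, 71.0 and 82.1 CPM in KO and 63.2, 17.8 and 31.6 CPM in WT, so that WT mouse 1 lay within the KO range (log2 fold change 0.90, SE 0.34, edgeR adjusted p = 0.27). Without WT replicate 1 it passed (log2 fold change 1.53, edgeR adjusted p = 0.013).

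Ocln and Marveld2, membrane proteins with a MARVEL domain, rose in basal KO cells. Marveld1 and Marveld3, which share that domain, did not pass there (edgeR adjusted p = 0.91 and 0.23). Ocln was 14.9, 10.4 and 9.68 CPM in KO and 5.25, 3.37 and 3.86 CPM in WT (log2 fold change 1.49, SE 0.29, edgeR adjusted p = 0.0058). Marveld2, which lies next to Ocln on chromosome 13, was 21.9, 14.8 and 16.5 CPM in KO and 8.99, 6.96 and 4.99 CPM in WT (log2 fold change 1.33, SE 0.25, edgeR adjusted p = 0.0041). In both genes KO mouse 1 and WT mouse 1 were the highest of their group. Of the scaffolds, Tjp1 was 289, 262 and 308 CPM in KO and 279, 346 and 355 CPM in WT, and the genotypes overlapped (log2 fold change -0.19, SE 0.26, edgeR adjusted p = 0.93). Tjp3 was 1.57, 4.09 and 3.77 CPM in KO and 0.364, 1.54 and 2.92 CPM in WT (log2 fold change 1.07, SE 0.54, edgeR adjusted p = 0.54). The calls of Ocln in limma voom (adjusted p = 0.058) and of Marveld2 with only the basal groups in the fit (edgeR adjusted p = 0.060) were lost. Without WT replicate 2 the count of 6 became 2, with Cldn1, Cldn3, Ocln and Marveld2 at edgeR adjusted p = 0.055, 0.058, 0.094 and 0.066.

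The 45 other tight junction genes tested had a median log2 fold change of -0.09 in basal KO cells. Among those that passed was Cgn, the junction adaptor cingulin, which was higher at 6.75 against 1.56 CPM (log2 fold change 2.11, SE 0.35, edgeR adjusted p = 0.0015). Like the 6 genes, Cgn was higher in LP than in basal cells of WT mice, and stood at 180.4 CPM in LP WT.

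Some of the luminal markers also passed in basal cells, where 2.47% of all genes were higher in KO. Of 7 LP markers 2 were higher in basal KO cells, with summed levels of 73.1 to 177 CPM in KO and 36.8 to 50.3 in WT, and of 7 mature luminal markers 1 was higher, with 112 to 142 against 38.2 to 53.7 CPM. Most of the summed mature luminal difference lay in Areg, the growth factor amphiregulin, at 68.1 against 6.98 CPM. Prlr (18.4 against 4.06 CPM), Foxa1 (6.99 against 2.65) and Tnfsf11 (0.562 against 0.0771) also lay higher in KO without overlap, where 17.6% of all genes did not overlap. The hormone receptors Esr1 (11.6 against 12.3 CPM) and Pgr (14.4 against 16.8 CPM) and also Cited1 (3.10 against 1.48 CPM) overlapped between the genotypes. The median log2 fold change of the 7 mature luminal markers was 1.38, and that of the 7 LP markers was 1.89. None of the luminal keratins Krt8, Krt18 and Krt19 passed, and their summed levels overlapped, at 547 to 694 CPM in KO and 479 to 829 in WT, and no marker of these lists was at 0 in all libraries of a group. Because each mouse gave every population, levels in basal KO cells could be set against those in LP of the same mouse. Cldn1 in basal KO cells was 22.5%, 22.2% and 33.1% of its LP level in mice 1, 2 and 3, and Marveld2 was 20.0%, 14.2% and 18.7%. The 7 LP markers lay between 0.274% and 10.9%, and the 3 luminal keratins between 2.26% and 13.0%. Cldn3, Cldn4, Cldn7 and Tjp3 lay between 0.867% and 4.11%, within the range of the LP markers in each mouse. Ocln, at 9.15%, 8.93% and 10.4%, was above all 7 LP markers in mice 1 and 3 and below Csn3 (10.9%) in mouse 2. Cldn8, at 11.3%, 7.16% and 20.5%, likewise lay above them in mice 1 and 3 and within their range in mouse 2. In WT mice Cldn1 in basal cells was 2.83% to 5.84% of LP, Marveld2 was 5.94% to 6.80%, and the LP markers were 0.211% to 3.49%. The part of luminal cells in the basal rise was not tested for any of the genes, within the marker range or above it.

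**Figure D2:**
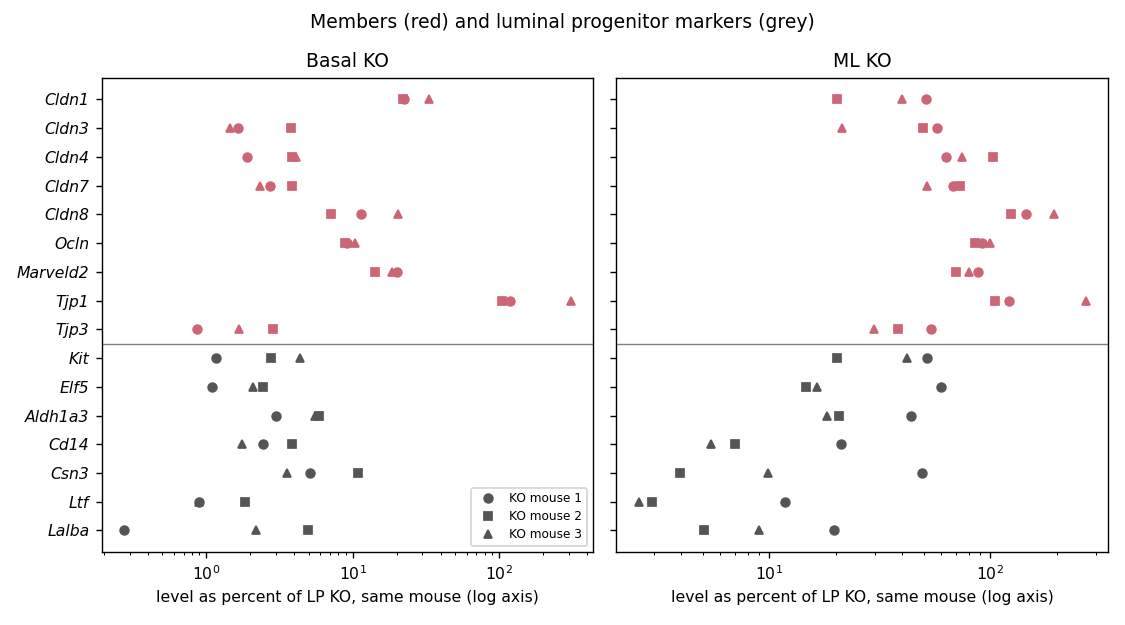
Level in basal KO (left) and ML KO (right) as a percentage of the LP level of the same KO mouse, on log axes, for the 9 genes (red) and 7 LP markers (grey); each symbol is 1 mouse. In basal KO cells Cldn1 lies at 22.2% to 33.1%, above all 7 LP markers. In ML KO cells its 20.3% to 51.0% lies within the range of the 7 LP markers, 2.56% to 59.7%.

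The make-up of the claudin transcripts in basal cells differed with genotype. Over 20 claudins in the table, the summed level was 116 ± 14.8 RPKM in basal KO and 50.9 ± 12.3 in basal WT. Cldn1 held 28.4% ± 2.57 of this sum in basal KO (26.7% to 31.3%) and 5.05% ± 2.61 in basal WT (3.06% to 8.01%), without overlap. Cldn12, a claudin that lacks the usual scaffold-binding tail, held 12.2% ± 0.696 in basal KO and 26.8% ± 8.78 in basal WT. Its own level was 57.4 against 52.8 CPM (log2 fold change 0.12, edgeR adjusted p = 0.97), so its share was lower while its level did not pass the test. In luminal groups Cldn4 held 58.2% to 73.8% of the sum as group means. The shares were described and not tested.

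**Figure D3:**
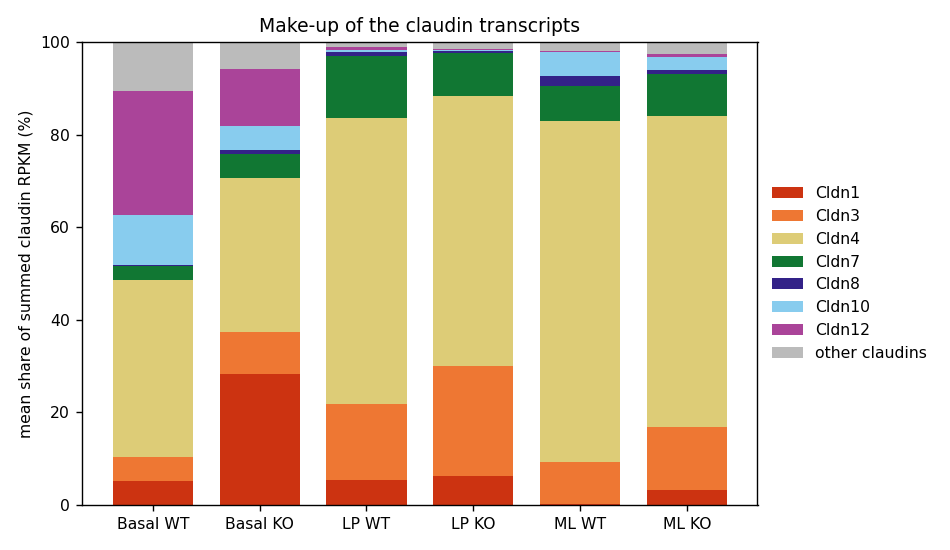
Mean share of the summed RPKM of 20 claudins (per cent, n = 3 libraries per bar) in the 6 groups, with 7 claudins drawn singly and the others together. Cldn1 holds 28.4% in basal KO against 5.05% in basal WT, and 3.25% in ML KO against 0.0534% in ML WT.

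In LP, KO against WT, 1 gene was higher and 1 lower, as were 7.55% and 5.68% of all genes, and the median log2 fold change of the 9 was -0.11 against 0.02 for all genes. Cldn3 was 555, 429 and 974 CPM in KO and 173, 316 and 418 CPM in WT (log2 fold change 1.11, SE 0.36, edgeR adjusted p = 0.046). The groups did not overlap, but their nearest libraries, at 429 and 418 CPM, almost touched. Its call was lost in 6 of 14 alternatives, among them without KO replicate 1, KO replicate 3, WT replicate 1 or WT replicate 2 (edgeR adjusted p = 0.065, 0.28, 0.12 and 0.16). Tjp1 was 242, 249 and 99.2 CPM in KO and 393, 402 and 412 CPM in WT (log2 fold change -1.03, SE 0.26, edgeR adjusted p = 0.016). The genotypes did not overlap, and KO mouse 3 lay far below the other KO mice. Without KO replicate 3 the log2 fold change was -0.71 (edgeR adjusted p = 0.0502), without WT replicate 2 the adjusted p was 0.096, and with only the LP groups in the fit it was 0.12. The LP groups also differed in depth, and with all libraries thinned to 1 depth Cldn3 missed the threshold (edgeR adjusted p = 0.053) and Tjp1 remained below it.

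Cldn1 in LP was 448, 475 and 333 CPM in KO and 595, 130.0 and 79.1 CPM in WT (log2 fold change 0.64, SE 0.60, edgeR adjusted p = 0.50). WT mouse 1 alone lay above the KO libraries, and without WT replicate 1 the log2 fold change was 2.01 (edgeR adjusted p = 0.0067). Cldn4 did not overlap between the genotypes in LP, with 1843 to 2998 CPM in KO and 1566 to 1711 in WT, where 31% of all genes did not overlap, and did not pass the test (edgeR adjusted p = 0.38). Cldn7, the gene with the firmest rise in basal cells, was 303, 233 and 346 CPM in LP KO and 390.3, 212 and 274 CPM in LP WT, with a log2 fold change of 0.01 (SE 0.21, edgeR adjusted p = 0.99) whose sign changed in 8 alternatives. Ocln was 93.0 to 163 CPM in KO and 139 to 231 in WT (edgeR adjusted p = 0.19), and Marveld2 was 88.6 to 109 against 84.1 to 132 CPM (edgeR adjusted p = 0.80). Cldn8 (15.3 to 23.1 against 11.2 to 38.5 CPM) and Tjp3 (142 to 226 against 85.1 to 312 CPM) also overlapped between the genotypes.

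Of the 45 other tight junction genes, 1 was higher and 1 lower in LP KO, where 7.55% and 5.68% of all genes were. The higher one was Cldn6, a claudin of embryonic epithelia, at 8.63 against 1.87 CPM (log2 fold change 2.26, SE 0.48, edgeR adjusted p = 0.0056). The lower one was Mpp5, the polarity scaffold PALS1, at 85.7 against 216 CPM (log2 fold change -1.33, SE 0.35, edgeR adjusted p = 0.018). Mature luminal markers moved in LP as well: 4 of 7 were lower in KO, with summed levels of 127 to 384 against 585 to 891 CPM, and their part in these results was not tested.

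In ML, KO against WT, 1 gene was higher and 1 lower, as were 12.5% and 2.62% of all genes, and the median log2 fold change of the 9 was 0.01 against 0.02 for all genes. Cldn1 was 229, 96.4 and 133 CPM in KO mice 1 to 3 and 5.38, 3.50 and 1.20 CPM in WT mice 1 to 3. This was the largest difference of the 9 genes in the 3 genotype comparisons (log2 fold change 5.61, SE 0.76, edgeR adjusted p = 3.8e-05), and its call held in all 14 alternatives. The lowest KO library was many times above the highest WT library. Cldn8 was 22.2, 28.7 and 37.9 CPM in KO and 55.9, 108 and 118 CPM in WT (log2 fold change -1.66, SE 0.41, edgeR adjusted p = 0.0094). The groups did not overlap, and the call was lost when libraries were thinned to 1 depth (edgeR adjusted p = 0.052) and without KO replicate 1, KO replicate 2, WT replicate 2 or WT replicate 3 (edgeR adjusted p = 0.066, 0.051, 0.054 and 0.057).

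The 2 claudins thus moved in opposite directions in ML. Their ratio, Cldn1 to Cldn8 per length, was 7.48, 2.44 and 2.56 in the ML of KO mice 1 to 3 and 0.0701, 0.0236 and 0.00741 in that of WT mice 1 to 3. In LP WT the ratio was 38.5, 2.46 and 1.69. The ML KO values of mice 2 and 3 were close to those of 2 of these LP WT libraries. In the LP of the KO mice themselves the ratio was 12.4 to 21.3, so every ML KO value lay below every LP KO value. The other 7 genes did not pass in ML. Cldn4 did not overlap, with 1495 to 1899 CPM in KO and 2048 to 3227 in WT (log2 fold change -0.53, SE 0.34, edgeR adjusted p = 0.32), where 37.8% of all genes did not overlap. Cldn3, Cldn7, Ocln, Marveld2, Tjp1 and Tjp3 overlapped between the genotypes, with log2 fold changes of -0.14 to 0.22 and adjusted p of 0.70 to 0.99 in edgeR.

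Of the 45 other tight junction genes, 5 were higher and 2 lower in ML KO, with a median log2 fold change of 0.17. These counts are near the shares over all genes, 12.5% higher and 2.62% lower, and the genes are named as a description. The higher genes with the lowest p were Cldn15, a pore-forming claudin, at 2.79 against 0.212 CPM (log2 fold change 3.37, SE 0.69, edgeR adjusted p = 0.0021), Pard3b, a homologue of the polarity protein PAR3, at 21.1 against 7.41 CPM (edgeR adjusted p = 0.0042), Cldn23 at 17.2 against 5.32 CPM (edgeR adjusted p = 0.012) and Clmp, an adhesion molecule of the junction, at 1.78 against 0.242 CPM (edgeR adjusted p = 0.021). The fifth was Pard6b, and the lower genes were Prkcz and Cldn10.

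Markers of the other epithelial cells moved in ML too. Beside the sums given above, 7 of 9 basal markers were higher in ML KO and 3 of 7 mature luminal markers lower. Of 7 LP markers 6 were higher, with summed levels of 342 to 1166 against 104 to 128 CPM. No marker of these lists was at 0 in all libraries of a group. Set against the LP of the same mouse, Cldn1 in ML KO was 51.0%, 20.3% and 40.0% in mice 1, 2 and 3. Kit, the receptor that marks luminal progenitors, was the nearest to it of the 7 LP markers, at 52.0%, 20.2% and 42.2%. Ltf was the lowest by its mean, at 11.8%, 2.93% and 2.56%. The other 6 beside Kit lay between 2.56% and 59.7%. Of those 6, Elf5 in mouse 1 (59.7%) and Aldh1a3 in mouse 2 (20.6%) were above Cldn1, and all other values were below it. In WT mice Cldn1 in ML was 0.905% to 2.70% of LP, and the LP markers were 0.440% to 5.90%. Set against basal cells of the same KO mouse, Cldn1 in ML was 227%, 91.5% and 121%, and the 9 basal markers lay between 0.293% and 17.6%. Among them the basal keratin Krt5 was 8.64% to 10.4% and the smooth muscle actin Acta2 was 0.453% to 0.665%. The part of LP cells, of basal cells or of their transcripts in the Cldn1 level of ML KO was not tested.

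**Figure D4:**
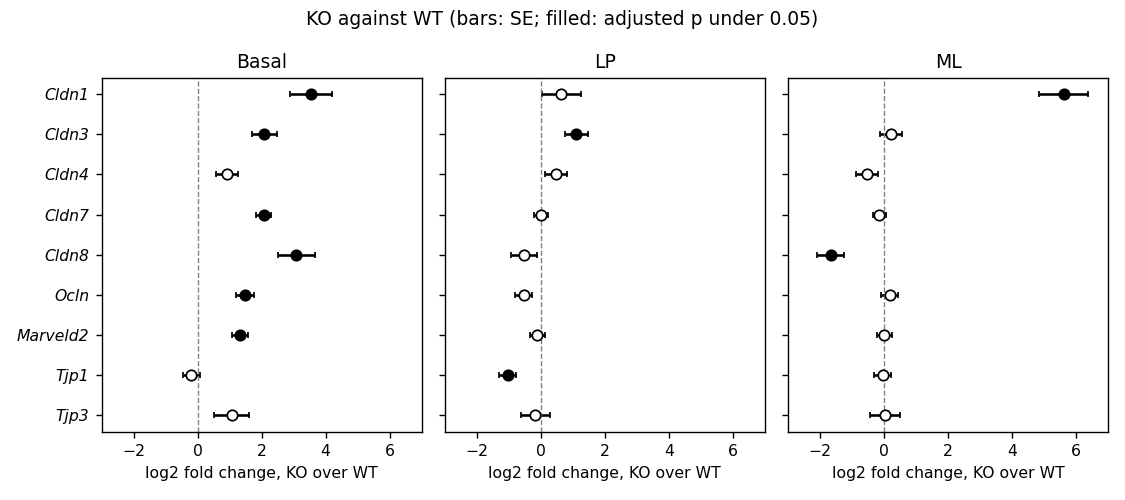
Log2 fold change of KO over WT in basal cells, LP and ML for the 9 genes, with bars of 1 SE from edgeR; filled points have an adjusted p under 0.05. From left to right, Cldn1 stands at 3.54, 0.64 and 5.61, and Cldn8 at 3.08, -0.54 and -1.66.

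The genotype effects were compared between populations with interaction terms. The effect in LP was below that in basal cells for 4 of the 9 genes, as for 0.656% of all genes: Cldn7 (log2 difference of the effects -2.05, SE 0.32, edgeR adjusted p = 0.0044), Cldn8 (-3.61, SE 0.71, 0.018), Ocln (-2.02, SE 0.39, 0.017) and Marveld2 (-1.44, SE 0.34, 0.0499). Marveld2 lay at the threshold and did not pass in 12 of 15 alternatives. Cldn8 did not pass in 7 of 15, among them limma voom (adjusted p = 0.16) and limma voom with the mouse as a random block (0.065). The count of 4 became 1 without KO replicate 2, KO replicate 3 or WT replicate 2, and 2 without KO replicate 1 or WT replicate 3. The effect in ML was below that in basal cells for 4 genes as well, as for 1.08% of all genes: Cldn3 (-1.86, SE 0.52, 0.039), Cldn7 (-2.20, SE 0.32, 2.3e-04), Cldn8 (-4.74, SE 0.71, 3.1e-04) and Marveld2 (-1.33, SE 0.34, 0.024). Those of Cldn7 and Cldn8 passed in all 15 alternatives, and without KO replicate 2, KO replicate 3 or WT replicate 2 they were the 2 that remained. Cldn3, Cldn7 and Marveld2 thus differed between KO and WT in basal cells by more than in ML. The calls of Cldn3 and Marveld2 were each lost in 6 of 15 alternatives. Cldn8 was higher in KO in basal cells and lower in ML.

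Cldn1 was the 1 gene of the 9 whose effect differed between LP and ML, and 5.7% of all genes had a lower effect in LP (log2 difference of the effects, LP minus ML, -4.97, SE 0.93, edgeR adjusted p = 0.0022). WT mouse 1 carries the high LP value of Cldn1, and without WT replicate 1 the difference was -4.11 (edgeR adjusted p = 4.8e-04). All 15 alternatives passed, at -5.39 to -4.11. With the mouse as a block, ML minus basal passed for 7 genes in place of 4, adding Cldn1 (1.83, edgeR adjusted p = 0.017), Cldn4 (-1.56, 0.027) and Ocln (-1.33, 0.0022). In the same fit LP minus basal passed for Cldn1 (-2.67, edgeR adjusted p = 0.0032), and LP minus ML also for Cldn8 (1.27, 0.028). The counts over all genes rose in that fit too, from 168 to 437 for LP minus basal and from 1141 to 1727 for LP minus ML. For ML minus basal, 1004 of all genes passed without the block and at most 1441 in any setting.

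The order of the populations within KO mice was close to that in WT mice for most of the genes. In KO, 8 of the 9 genes were higher in LP than in basal cells (19.4% of all genes) and 7 in ML than in basal cells (16.3%). The interaction for LP minus basal is, by its definition, the LP over basal difference in KO minus that in WT. The differences behind it therefore give the interactions above in another form. For Cldn7 the log2 difference was 5.11 in KO and 7.16 in WT. It was 3.41 and 5.44 for Ocln, and 3.01 and 6.62 for Cldn8. Cldn1 in KO was higher in LP than in basal cells (log2 difference 1.99, SE 0.62, edgeR adjusted p = 0.015), and this call was lost without KO replicate 1, 2 or 3 (edgeR adjusted p = 0.082, 0.085 and 0.0695). Between ML and basal cells of KO mice Cldn1 overlapped, at 96.4 to 229 and 101 to 110.4 CPM (edgeR adjusted p = 0.53).

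Between ML and LP of KO mice, 2 genes were lower in ML, as were 3.14% of all genes. They were Cldn3 (247 ± 63.8 against 652 ± 285 CPM, log2 difference -1.40, SE 0.36, edgeR adjusted p = 0.015) and Cldn7 (185 ± 17.7 against 294 ± 57.0 CPM, log2 difference -0.67, SE 0.21, edgeR adjusted p = 0.049). Both calls were lost without KO replicate 2 or 3 (edgeR adjusted p = 0.057 and 0.33 for Cldn3, 0.15 and 0.37 for Cldn7), and that of Cldn7 also without KO replicate 1 (0.12). With the mouse as a block 4 genes passed, with Cldn1 (log2 difference -1.50, edgeR adjusted p = 0.0026) and Tjp3 (-1.31, 0.027) added. Cldn8, which was higher in ML than in LP of WT mice, was 22.2 to 37.9 CPM in ML and 15.3 to 23.1 CPM in LP of KO mice (log2 difference 0.62, SE 0.41, edgeR adjusted p = 0.35). The interaction term for Cldn8, LP minus ML, was 1.13 and did not pass without the block (edgeR adjusted p = 0.27).

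Across the 18 libraries the genes fell into 3 patterns, described here by the Pearson correlation of log2 CPM, in which the points share populations and mice. Cldn3, Cldn4, Cldn7, Cldn8, Ocln, Marveld2 and Tjp3 correlated with one another at 0.88 to 0.99, the highest pair being Ocln and Marveld2, neighbours on chromosome 13 (100496504 to 100552718 and 100595957 to 100616971, GRCm38). Cldn3 and Cldn4, neighbours on chromosome 5 (134986214 to 134987476 and 134945123 to 134946934), correlated at 0.95. Cldn1 correlated with these 7 at 0.08 to 0.43, and Tjp1 with all others at -0.31 to -0.10. Cldn1 and Cldn8 share chromosome 16 and lay far apart on it (26356645 to 26371839 and 88560826 to 88563183).

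The genes outside the 9 that were most like each one over the 18 libraries differed in the same way. For Cldn1 they were Kcnj15, a potassium channel (r = 0.96), and Cpe, carboxypeptidase E (r = 0.93). For Cldn7, Ocln and Marveld2 they were the same 2 genes, Pkp2, a desmosomal plakophilin (r = 0.99 each), and Plcg2, a phospholipase C (r = 0.99 each). For Cldn4 they were Marveld3, a further MARVEL protein of the junction, and Wnt7b (r = 0.99 each), and for Tjp1 the chromatin-associated genes Nipbl and Atrx (r = 0.95 each). Cldn3 was most like Igsf5, a junctional adhesion molecule, and BC021767 (r = 0.99 each), Cldn8 most like Lcp1 (0.99) and Elapor1 (0.98), and Tjp3 most like Lyn (0.99) and Clu (0.98).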

How the data were processed

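Total RNA of 18 sorted libraries was sequenced from TruSeq libraries, a kit that does not mark strand, per the labels' protocols. The authors deposited whole-number read counts per gene, made with featureCounts on mm10 per the submitters' processing notes. No aligner, version, annotation or strand setting is given in the sources used here. Without strand, reads of overlapping genes cannot be told apart. Symbols, positions and promoters came from RefSeq tables on GRCm38.p6 (25275 of 27179 identifiers matched; the 1904 others held 1.6% of counts and stayed in the fits).

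Genes were filtered with filterByExpr, scaled by TMM (factors 0.832 to 1.19) and fitted with edgeR 4.0.16 in R 4.3.3, with 1 mean per group over all 18 libraries and Benjamini-Hochberg adjustment within each of 12 contrasts. RPKM divides CPM by the deposited gene length. The code was tested on simulated data. The members, the lists and the rule for named genes (all 9 members, up to 4 listed tight junction genes of lowest p per contrast, the 2 most correlated genes of at least 2 mean CPM) were chosen with earlier results of these data known. The luminal and basal marker lists were chosen likewise. Replicates of a group differed (chi-square per degree of freedom 22.6 to 204). Libraries of 1 mouse are paired by the design: their deviations from the group means correlated at 0.095 to 0.334, over 0.1 in 17 of 18 pairs. Alternatives used DESeq2 1.42.0, limma 3.58.1 voom, RLE scaling, no filter, fewer groups, thinned libraries, a mouse block and each mouse left out. One gene of the lists is not reported here.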

Additional observations from a re-analysis of the deposited data

Results flagged for a closer look

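The genotype effect differed between populations for 6 of the 9 genes, by edgeR's interaction test with adjusted p under 0.05. Against basal cells, the log2 effect of KO in LP was lower for Cldn7 (-2.05), Cldn8 (-3.61), Ocln (-2.02) and Marveld2 (-1.44), as for 0.656% of all genes. Of 15 alternatives, 1, 7, 4 and 12 lost these calls, in that order. Against basal cells, the effect in ML was lower for Cldn3 (-1.86), Cldn7 (-2.20), Cldn8 (-4.74) and Marveld2 (-1.33), as for 1.08% of all genes. There the calls of Cldn3 and Marveld2 were each lost in 6 of 15 alternatives. Between the luminal populations, the effect in LP was lower than in ML for Cldn1 (-4.97), as for 5.7% of all genes. Groups of 3 are too small for a search for outlying libraries.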

How the results depend on the processing

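Of the 9 genes, the number passing was 6 in basal cells (2 to 7 with 1 mouse left out), 2 in LP (0 to 2) and 2 in ML (1 to 2), for KO against WT. It was 4 for LP minus basal (1 to 3), 1 for LP minus ML (1 in each) and 4 for ML minus basal (2 to 4), and 4 for WT ML against WT LP (2 to 3) and 2 for KO ML against KO LP (0 to 1). The other settings moved the count for LP to 0 with only the groups compared and to 1 with libraries thinned to 1 depth, and that for ML to 1 when thinned. They moved LP minus basal to 1 in limma voom and 2 when thinned, ML minus basal to 2 in limma voom, and KO ML against KO LP to 4 in limma voom, 1 with RLE scaling and 1 when thinned. The other population comparisons kept their counts within 1 gene. The fit that uses edgeR's adjusted deviances (legacy=FALSE) was chosen after seeing the data and changed 2 of 108 results.

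With the mouse as a replicate block, ML minus basal rose to 7 genes in the edgeR fit, LP minus ML to 2 and KO ML against KO LP to 4. Over all genes, LP minus ML rose from 1141 to 1727 in that fit. The mouse as a random block in limma voom (correlation 0.206) gave 2 for LP minus ML, with Tjp1 added, and 4 for KO ML against KO LP. For KO ML against KO LP the random block passed 3859 of all genes, against 1891 in the main fit. The random block also added Cldn4 and Ocln for ML minus basal and Tjp1 for KO LP against KO basal cells. It lost Cldn8 for KO against WT in basal cells (adjusted p = 0.12) and for LP minus basal (0.065). KO and WT mice share no mouse, so the fixed block could not be fitted for KO against WT.

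Differences that changed sign were near 0 and did not pass in any of those settings. For KO against WT in LP, Cldn7 (0.01 on the log2 scale) was -0.0230 in DESeq2, -0.0232 with RLE scaling, -0.00446 with only the groups compared, -0.0939 when thinned and -0.158 to 0.284 with 1 mouse left out. Marveld2 was -0.246 to 0.0675 and Tjp3 -0.525 to 0.284 with 1 mouse left out, and Tjp3 was 0.00159 in the random block. For KO against WT in ML, the ranges with 1 mouse left out were -0.00720 to 0.352 for Cldn3, -0.0566 to 0.326 for Ocln, -0.140 to 0.156 for Marveld2, -0.116 to 0.0985 for Tjp1 and -0.220 to 0.248 for Tjp3. There Tjp1 was 0.000610 with no filter, and Tjp3 was -0.0259 in limma voom and -0.00642 in the random block. For LP minus ML, Tjp3 was 0.0203 in limma voom, 0.00801 in the random block, 0.0158 in the fixed block and -0.576 to 0.132 with 1 mouse left out, and Cldn7 was -0.0555 when thinned and -0.0482 to 0.377 with 1 mouse left out. Tjp1 was -0.0506 for ML minus basal when thinned, and -0.102 to 0.00692 for KO ML against KO basal with 1 mouse left out. The cause was not tested.

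Over all genes, the number passing KO against WT was 418 in basal cells (202 to 694 over all settings), 2178 in LP (579 to 3102) and 2491 in ML (1526 to 3085). It was 168 (30 to 559) for LP minus basal, 1141 (604 to 1727) for LP minus ML, 1004 (607 to 1441) for ML minus basal and 1891 (512 to 3859) for KO ML against KO LP. It was 5941 (3864 to 6762) for WT LP against basal, 5591 (3384 to 6484) for WT ML against LP and 5663 (3235 to 7209) for KO ML against basal. With RLE scaling the median log2 difference of all genes stood at -0.12 for LP minus ML and -0.14 for WT ML against basal, against -0.07 with TMM in both. Scaled by total counts, 11 of 54 mean RPKM values moved by 1 SD or more.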

Other observations

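Of the tight junction genes outside the 9, Cldn6 and Cldn10 had the lowest p for WT ML against WT LP, and both were higher in ML. In WT mice Cldn6 was 42.6 CPM in ML and 1.87 in LP (log2 difference 4.57, SE 0.51, edgeR adjusted p = 2.3e-06), and Cldn10 was 136 and 9.37 CPM (log2 difference 3.87, SE 0.45, edgeR adjusted p = 4.4e-06). Cldn23 went the other way, at 5.32 CPM in ML and 16.2 in LP (log2 difference -1.57, SE 0.42, edgeR adjusted p = 0.0079). In KO mice Cldn6 and Cldn10 were again higher in ML, Cldn6 at 38.1 against 8.63 CPM (log2 difference 2.15, edgeR adjusted p = 0.0030) and Cldn10 at 58.4 against 4.29 CPM (log2 difference 3.76, edgeR adjusted p = 2.4e-05). Cldn6 had a larger KO effect in LP than in ML (log2 difference of the effects 2.42, SE 0.63, edgeR adjusted p = 0.024).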
